A study of Mus musculus with 8 samples.

Results

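The 4 genes described here encode the main stromal signals for osteoclasts, the bone-resorbing cells of the joint: Tnfsf11 (RANKL), Tnfrsf11b (osteoprotegerin, OPG), Csf1 (M-CSF) and Il34 (IL-34). They were taken by symbol and are 4 of the 32285 genes counted. Their transcripts were counted in single cells of mouse ankle and wrist synovium, in 4 droplet libraries that pooled 17 animals under hashtag antibodies. Of 47658 barcodes, 24227 carried the authors' annotation, and 21731 of these were fibroblasts. The annotation has 7 classes. The fibroblast classes are 5, Pi16+, Cd200+, Il6+, Mmp3+ and Lining, and the others are Osteoblasts and Chondrocytes.

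The labels give a single strain for all libraries, B6-Tg(TNF)197Gkl, and an age of 8 to 10 weeks. The healthy group was 3 wild-type animals without treatment, 1 in each of the 3 libraries that were not sorted for FAP, where hashtag 4 marked them. The untreated arthritic group was 3 hTNFtg197+ animals, which carry a human TNF transgene, given Il23mc for 9 days and no inhibitor. The TNF-inhibited group was 3 hTNFtg197+ animals given Il23mc for 9 days and an antibody to human TNF. The IL-17-inhibited group was 3 hTNFtg197+ animals given Il23mc for 9 days and an antibody to mouse IL-17a. The FAP-sorted group was 5 hTNFtg197+ animals given Il23mc for 9 days without an inhibitor, whose cells were sorted as viable, CD45-, FAP+ and Pdpn+. The other 3 libraries held viable CD45- cells, a gate that removes most blood-derived cells, among them osteoclast precursors. No group received Il23mc without the transgene, or the transgene without Il23mc, so the parts of transgene and Il23mc cannot be told apart. Each inhibitor was given in 1 library, so treatment and library cannot be told apart either.

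RANKL is a membrane-bound or shed cytokine of the TNF family that binds RANK on osteoclast precursors and drives them to fuse and resorb bone. OPG is a secreted decoy receptor that binds RANKL and keeps it from RANK, so the balance of the pair is a common summary of how far a stroma favours bone resorption. M-CSF and IL-34 are the known ligands of the receptor CSF1R, through which monocytes, macrophages and osteoclast precursors receive signals to survive and multiply. In inflamed joints, synovial fibroblasts are known as a source of RANKL at sites of erosion.

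A library held 10879 to 13105 barcodes and 149149135 to 180057537 UMIs (unique molecular identifiers, each counting 1 captured transcript end), and 32 to 51 barcodes were shared between any pair of libraries. Summed fibroblast UMIs were 4508588 to 7307067 per healthy animal and 12372684 to 36786390 per arthritic animal. The healthy animals stood apart in how cells had been assigned to them. Their annotated hashtag had the highest raw hashtag count in only 34.8% (library of untreated arthritis), 22.7% (TNF inhibition) and 9.93% (IL-17 inhibition) of their fibroblasts, against at least 96.2% in every arthritic animal. After division by the library mean of each hashtag it was highest in 100% of the healthy fibroblasts. A UMI of a Y-linked gene was found in 2.94%, 23.1% and 17.7% of the healthy fibroblasts and Xist alone in 88.8%, 65.4% and 67.3%, in the same order. Among the arthritic animals the share with a Y-linked UMI was 57.8% to 86.5% in 6 and 2.34% to 4.87% in 8, with both kinds in every arthritic group. The high shares were in untreated animal 2, TNF-inhibited animals 1 and 2, IL-17-inhibited animal 1 and FAP-sorted animals 1 and 2. The mix of both kinds thus differed between groups, and sex was not a term in any model. Healthy animals 2 and 3 lay outside both ranges. Whether their cells come from more than 1 animal was not tested. Fold changes of the 4 genes against healthy animals are given below also with only the cells whose hashtag was highest in raw counts and without the healthy cells holding a Y-linked UMI, where at least 2 healthy animals kept enough cells. Levels and shares are of all annotated cells. Marker genes matched the class names for Prg4 in Lining cells and for Mmp3, Il6 and Pi16 in the classes named after them. Cd200 itself was higher in Osteoblasts (339 CPM, UMIs of the gene per 1000000 UMIs of the cells) than in the Cd200+ class (215 CPM). Acan and Col2a1, which define cartilage cells, reached only 63.0 and 33.5 CPM in the Chondrocytes class. Both were still highest there, Acan closely (54.6 CPM in Osteoblasts) and Col2a1 clearly (at most 1.82 CPM elsewhere). Chad (465 CPM), Matn3, Cnmd and Col9a1 were also highest in that class. Sox9 was not, at 172 CPM against 184 CPM in Lining cells.

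All 4 genes are protein-coding and lie on the minus strand (GRCm38, GENCODE M21). Tnfsf11 (ENSMUSG00000022015) is at chr14:78277445-78308043, Tnfrsf11b (ENSMUSG00000063727) at chr15:54250619-54278484, Csf1 (ENSMUSG00000014599) at chr3:107741048-107760469 and Il34 (ENSMUSG00000031750) at chr8:110741829-110805924. Il34 overlaps the antisense genes Gm15894 and Gm15895. The promoters of Tnfsf11 and Csf1, the 2 of the 4 genes found in the RefSeq table, are shown; in Lining cells the first gene was called higher and the second lower in untreated arthritis. They are the 250 bases before each gene's start, from RefSeq (GRCm38.p6), on the minus strand at chr14:78308044-78308293 and chr3:107760470-107760719. Capitals mark matches, on either strand, to a TATA box (TATAAA), an E-box (CANNTG) or the NFAT core (GGAAA), and no match overlapped another.
Tnfsf11: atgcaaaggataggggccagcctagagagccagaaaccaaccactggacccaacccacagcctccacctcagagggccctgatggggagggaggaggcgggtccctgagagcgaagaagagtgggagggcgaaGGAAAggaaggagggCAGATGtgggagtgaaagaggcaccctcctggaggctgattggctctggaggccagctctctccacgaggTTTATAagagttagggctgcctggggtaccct
Csf1: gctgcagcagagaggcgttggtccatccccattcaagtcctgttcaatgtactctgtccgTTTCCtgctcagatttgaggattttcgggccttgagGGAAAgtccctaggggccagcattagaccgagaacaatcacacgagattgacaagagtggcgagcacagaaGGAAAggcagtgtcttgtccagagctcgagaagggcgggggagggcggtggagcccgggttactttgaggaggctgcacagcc
Counting back from the start, the Tnfsf11 window held a TATA box match beginning at base -32, an E-box at -102 and an NFAT core at -117, and the Csf1 window held NFAT cores at -190, -154 and -83. Of 32851 promoters of the same length, 12.4% held a TATA box, 66.2% an E-box and 55.6% an NFAT core. The letters of AP-1 (TGANTCA), STAT (TTCNNNGAA), C/EBP (TTGCNNAA) and RUNX (TGTGGT), held by 6.75%, 7.02%, 9.56% and 14.0% of promoters, were not in either window. GC content was 60.4% for Tnfsf11 and 56.4% for Csf1. Tnfrsf11b and Il34 are named only.

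In fibroblasts, untreated arthritis went with far more Tnfsf11 and more Il34, IL-17 inhibition with less Tnfsf11 and more Il34 than untreated arthritis, and TNF inhibition with no called difference from it. In edgeR's quasi-likelihood test over animals, 2 of the 4 genes rose from healthy to untreated arthritis, where 28.7% of all genes tested were called at an adjusted p under 0.05. The call was made for 0 of 4 genes with TNF inhibition against untreated arthritis, where 5.55% of all genes were called. Before adjustment 1 gene, Csf1, was under 0.05 in edgeR, and DESeq2 called 0 of them. With IL-17 inhibition against untreated arthritis 1 gene rose and 1 fell, against a background of 8.45%. Between the inhibitors, 2 of 4 were higher with IL-17 inhibition than with TNF inhibition, where 7.6% of all genes were called. In FAP-sorted against untreated animals 2 of 4 fell, where 42.9% of all genes were called, so that count says little about these genes. The members are few, and each is described in turn.

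**Figure D1:**
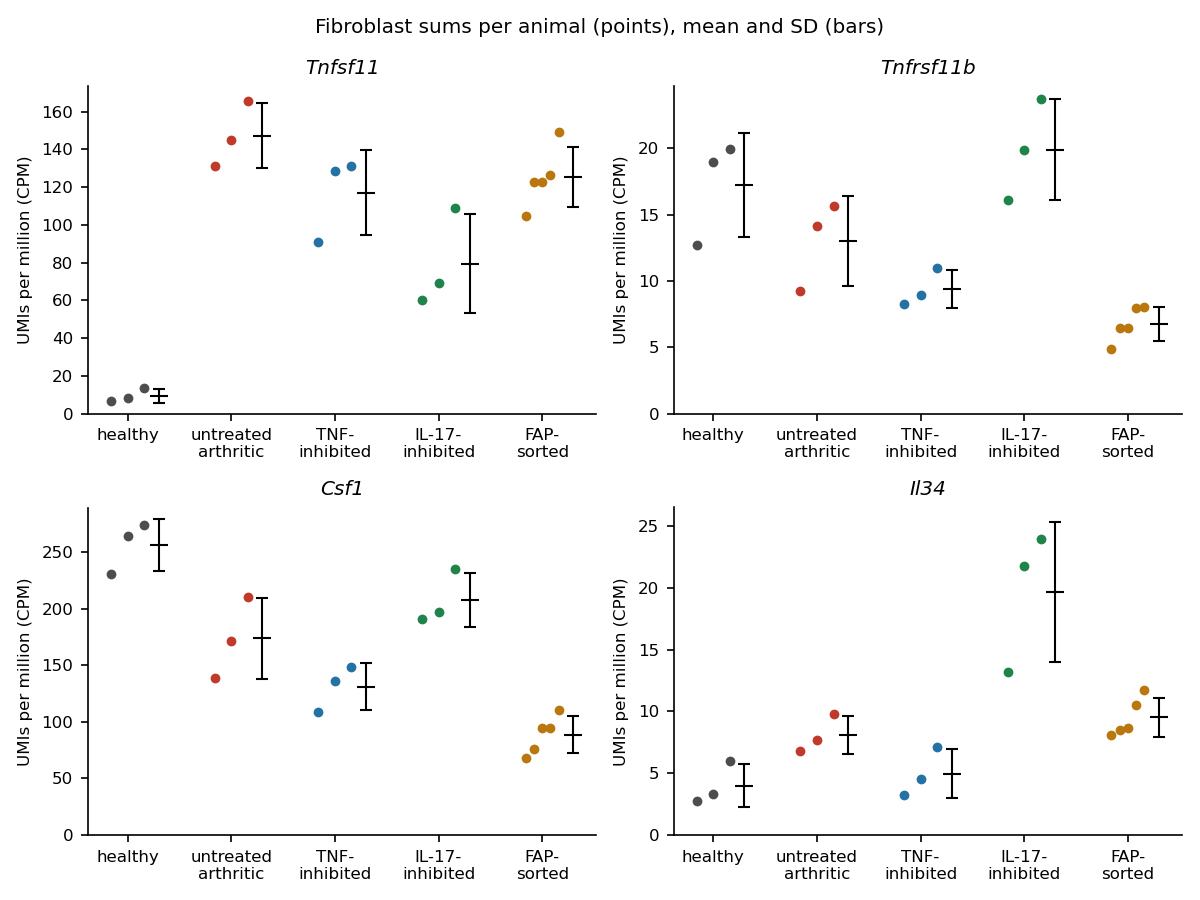
Level of each gene in fibroblasts (y axis, CPM of fibroblast UMIs) for each of 17 animals (points), by group (x axis), with group mean and SD. Tnfsf11 lies between 6.56 and 13.5 in the healthy animals and between 60.3 and 166 in all arthritic animals, and Il34 is highest in the IL-17-inhibited animals.

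Tnfsf11, which encodes RANKL, had a fibroblast level of 13.5, 6.56 and 7.98 CPM in healthy animals 1, 2 and 3, pooled with the untreated, the TNF-inhibited and the IL-17-inhibited group in that order. In untreated arthritis it was 145, 131 and 166 CPM. Every untreated animal was far above every healthy one. It was higher in untreated arthritis by 4.14 ± 0.28 (log2 fold change ± SE in edgeR, adjusted p = 5.6e-07, a 17.7-fold difference, 95% interval 3.53 to 4.75 on the log2 scale). The healthy level is near background. Barcodes outside the annotation with at least 5 UMIs over 5 endothelial markers, taken as a cell type with little RANKL, held 10.6, 18.3 and 7.67 CPM of Tnfsf11 in the same libraries. The healthy fibroblast level is therefore read as background, and the fold as a fold over that level. With only the cells, of any animal, whose annotated hashtag was highest in raw counts the difference was 4.22. Without healthy cells holding a Y-linked UMI it was 4.25.

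The rise was smaller in an equally weighted mean of classes that left out Mmp3+ and Pi16+ cells. The parts of the weights and of the classes left out were not tested. When Lining, Il6+ and Cd200+ cells, the classes with enough cells in all healthy and untreated animals, were given equal weight, Tnfsf11 went from 15.7 ± 6.68 CPM in healthy (SD, n = 3) to 55.98 ± 0.81 CPM in untreated animals (n = 3), a log2 difference of 1.84. Within classes of at least 20 cells per animal, edgeR called Tnfsf11 higher in untreated than healthy Lining cells (2.70 ± 0.55, adjusted p = 0.0031, with 13.2% of all genes called), and so it was with only cells of the highest raw hashtag (3.34, edgeR adjusted p = 0.016, 2 healthy animals) and without healthy cells with a Y-linked UMI (3.07, adjusted p = 0.011, 2 healthy animals). It was also higher in Cd200+ cells (1.56 ± 0.38, adjusted p = 0.026, with 4.27% called), a call lost on leaving out healthy animal 2, healthy animal 3, untreated animal 2 or untreated animal 3 (adjusted p up to 0.11). In Il6+ cells the estimate was 2.16 ± 0.65 (adjusted p = 0.059, with 6.91% called), which passed without healthy cells with a Y-linked UMI (2.67, edgeR adjusted p = 0.031) and not with only cells of the highest raw hashtag (3.60, adjusted p = 0.22). Without the Y-linked cells Cd200+ cells gave 1.58 (edgeR adjusted p = 0.024) and Chondrocytes 3.64 (adjusted p = 0.0018). With all cells, Chondrocytes gave 3.39 ± 0.61 (adjusted p = 0.0021, with 12.9% called) and Osteoblasts, from 2 animals against 2, 1.68 ± 0.29 (adjusted p = 0.0040, with 5.54% called). The difference between the classes in this rise did not pass the test in Lining, Il6+ and Cd200+ cells (edgeR interaction, adjusted p = 0.54), which does not show that they responded alike.

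Mmp3+ fibroblasts, named for the matrix-degrading protease Mmp3, held most of the Tnfsf11 UMIs counted in the 7 annotated classes of untreated arthritis. The gate left out CD45+ cells, among them T cells, which can make RANKL, and barcodes outside the annotation are not in these shares. Within that limit Mmp3+ cells held 75.7% ± 4.54 of Tnfsf11 UMIs in the 3 untreated animals, with 35.2% ± 3.24 of the annotated cells. In the 3 healthy animals they held 4.63% ± 2.92 of Tnfsf11 UMIs and 3.09% ± 1.45 of the cells. There Osteoblasts, the bone-forming cells and a known source of RANKL, held 30.2% ± 18.3 of Tnfsf11 UMIs with 3.79% ± 2.28 of the cells. Healthy Mmp3+ cells numbered 16, 17 and 24 per animal, against 292, 735 and 827 in untreated arthritis. When the minimum was lowered to 10 cells, Tnfsf11 was higher in untreated Mmp3+ cells by 3.72 ± 0.43 (edgeR, adjusted p = 0.00016, with 6.84% of genes called), and without healthy cells with a Y-linked UMI by 3.69 (adjusted p = 0.0020, 2 healthy animals).

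**Figure D2:**
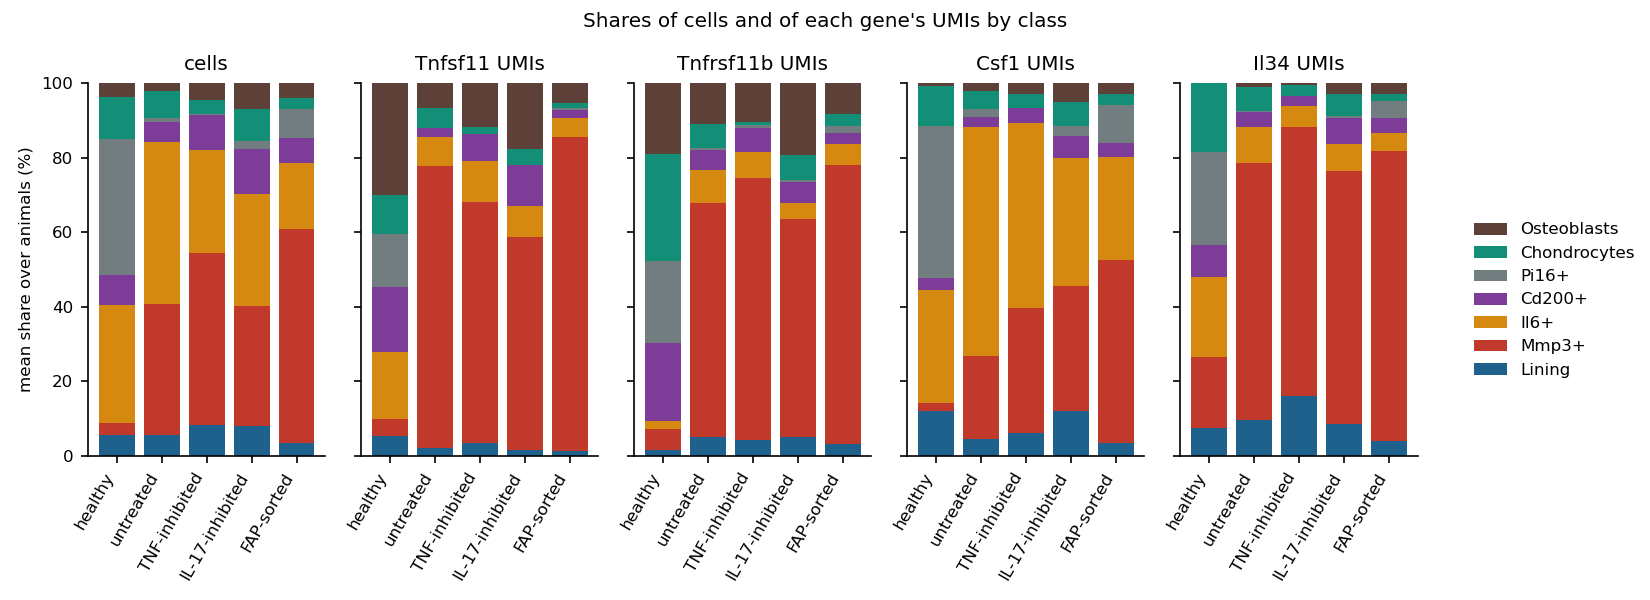
Stacked mean shares (y axis, percent) of annotated cells and of each gene's UMIs that came from each of the 7 classes, by group (x axis). In untreated arthritis Mmp3+ cells hold 35.2% of cells and 75.7% of Tnfsf11 UMIs, and Il6+ cells hold 61.5% of Csf1 UMIs.

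Across classes of untreated animals the order of Tnfsf11 was Osteoblasts (305 ± 4.41 CPM, SD, n = 2), Mmp3+ (240 ± 22.9, n = 3), Chondrocytes (107 ± 14.0), Cd200+ (89.97 ± 6.87), Lining (39.5 ± 8.05) and Il6+ (38.4 ± 5.01). Chondrocytes and Cd200+ cells overlapped, as did Lining and Il6+ cells, and the other neighbours in this order did not. In healthy animals Osteoblasts (102 ± 5.28, n = 2) stood above Cd200+ cells (30.4 ± 21.4, n = 3), and every lower neighbour overlapped. The classes were clustered on these same cells, so their order is a description. In the IL-17-inhibited animals all neighbours overlapped, from Osteoblasts (193 ± 36.7) to Pi16+ cells (2.88 ± 4.99).

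Shares of cells with a Tnfsf11 UMI gave the same picture after each cell was thinned to 3000 UMIs to level depth. In untreated animals the share was 42.9% ± 1.47 of Osteoblasts (n = 2) and 35.1% ± 1.92 of Mmp3+ cells (n = 3), against 71.8% and 65.1% of cells before thinning. It was 11.4% ± 2.43 of Cd200+, 5.72% ± 0.833 of Il6+ and 4.72% ± 2.64 of Lining cells. The endothelial background was 2.21%, 1.94% and 1.73% in the same order of libraries, of 453, 515 and 521 barcodes with median depths of 11671, 10742 and 10402 UMIs (95% exact Clopper-Pearson intervals 1.06% to 4.02%, 0.935% to 3.54% and 0.793% to 3.25%, for counting error only). Healthy Il6+ (1.44% ± 0.237), Pi16+ (1.77% ± 2.03) and Lining cells (2.15% ± 2.05) lay at that background, while healthy Cd200+ cells (6.04% ± 3.44) and Osteoblasts (11.01% ± 2.10, n = 2) had larger shares. In the FAP-sorted library only 6 barcodes met the endothelial rule, too few for a background.

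With IL-17 inhibition fibroblast Tnfsf11 was 109, 60.3 and 69.0 CPM, below all of the untreated animals. It fell by 0.94 ± 0.22 against untreated arthritis (log2, edgeR, adjusted p = 0.023, 0.520 of the untreated level), and stayed above healthy by 3.20 ± 0.28 (adjusted p = 3.7e-06, with 35.6% of genes called; 3.28 and 3.31 with the 2 smaller sets of cells). Leaving out animals, the call held only without IL-17-inhibited animal 1 (-1.25) and was lost without each of the other 5 (-1.03 to -0.76, adjusted p 0.054 to 0.089). With library as a term, which rests on 1 healthy animal per library, the estimate was -0.23 (adjusted p = 0.96). In Mmp3+ cells Tnfsf11 was 158, 100 and 104 CPM with IL-17 inhibition against 247, 215 and 259 CPM in untreated animals. These groups did not overlap, and it fell by 1.10 ± 0.19 (edgeR, adjusted p = 0.0068, with 10% of genes called), a call kept without each of the 6 animals. Its thinned share of Mmp3+ cells was 19.7% ± 2.77 against 35.1% ± 1.92.

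Lining cells showed the same direction. Their Tnfsf11 level was 12.3, 3.86 and 21.1 CPM with IL-17 inhibition, all below the untreated 40.1, 47.3 and 31.2 CPM and near the endothelial background of that library (7.67 CPM). It fell by 1.68 ± 0.35 (edgeR, adjusted p = 0.045, with 0.495% of genes called), and the call was lost without any 1 of 5 of the 6 animals (-1.83 to -1.26, adjusted p up to 0.22) and held only without IL-17-inhibited animal 3. In Il6+ cells (-0.085 ± 0.46, adjusted p = 0.96, with 2.24% called) and Cd200+ cells (0.26 ± 0.29, adjusted p = 0.73, with 1.48% called) the difference did not pass. Whether classes differ in this response was not tested.

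TNF inhibition left fibroblast Tnfsf11 at 128, 131 and 91.0 CPM. Animals 1 and 3 lay below the untreated range, animal 3 clearly so, and animal 2 lay at its lower end. The difference from untreated arthritis was -0.26 ± 0.22 (edgeR, adjusted p = 0.52, 95% interval -0.73 to 0.22), and the level was above healthy by 3.89 ± 0.28 (adjusted p = 5.3e-07, with 38.9% of genes called; 3.96 and 3.99 with the 2 smaller sets of cells). With library as a term the sign turned to 0.73 (adjusted p = 0.94). In Mmp3+ cells Tnfsf11 was 166, 159 and 112 CPM, below all untreated animals, with a difference of -0.66 ± 0.19 that missed the threshold (adjusted p = 0.072, with 4.21% of genes called). In the other classes tested, the estimates ran from -0.42 in Chondrocytes to 0.96 in Il6+ cells, with adjusted p of 0.34 or more. The inhibitors themselves differed by -0.69 ± 0.22, IL-17 minus TNF inhibition (edgeR adjusted p = 0.081, DESeq2 adjusted p = 0.048). Within classes, Tnfsf11 was lower with IL-17 than with TNF inhibition in Lining cells (-1.98 ± 0.35, edgeR adjusted p = 0.0031, with 6.65% of genes called). It was also lower in Osteoblasts (-0.91 ± 0.20, edgeR adjusted p = 0.029, with 2.31% called), a call lost without any 1 of 4 animals: TNF-inhibited 2 or 3, IL-17-inhibited 2 or 3.

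FAP-sorted fibroblasts held 149, 123, 126, 122 and 105 CPM of Tnfsf11, overlapping the untreated range (-0.15 ± 0.11, edgeR adjusted p = 0.31). Within Mmp3+ cells, which were 57.4% ± 10.5 of the FAP-sorted cells, Tnfsf11 was lower than in untreated animals by 0.55 ± 0.11 on the log2 scale (edgeR adjusted p = 0.0030, with 37.7% of genes called). The sort and the library cannot be told apart in any of these values.

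**Figure D3:**
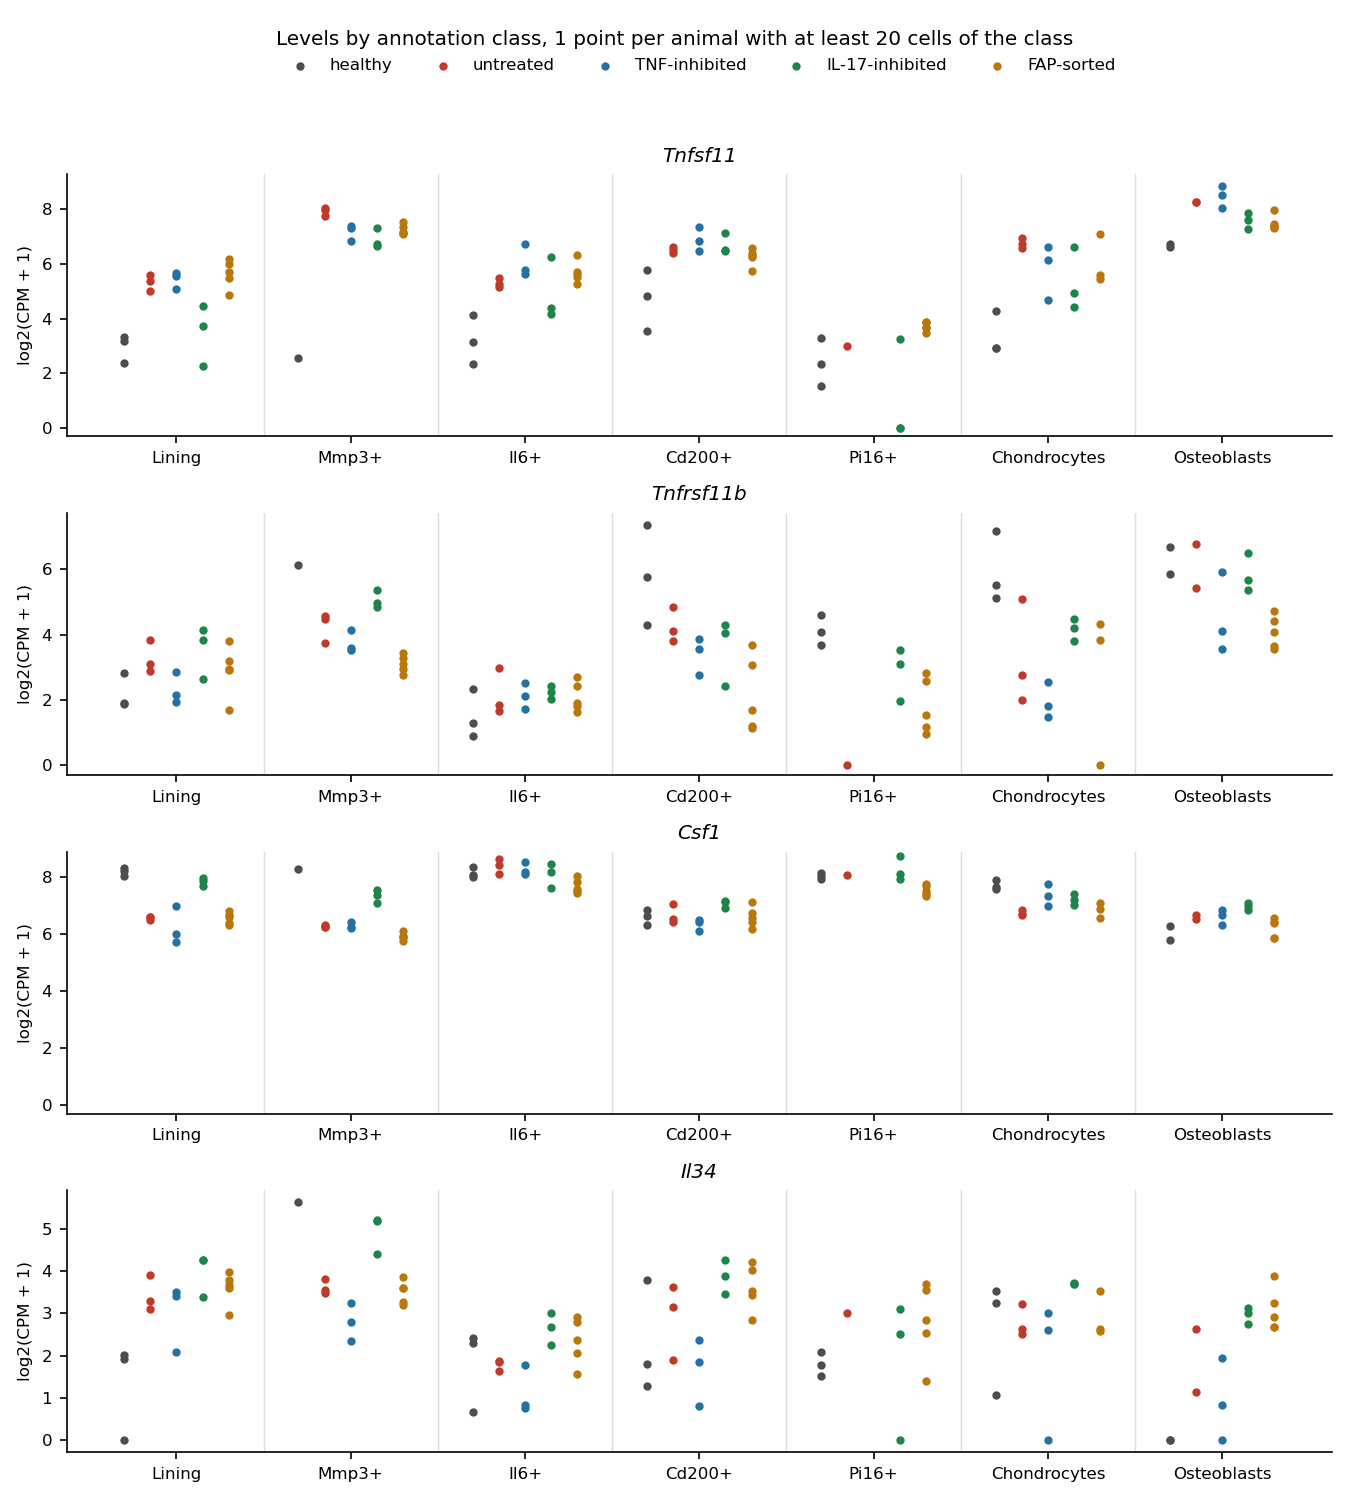
Level of each gene, log2(CPM + 1) on the y axis, in each class (x axis) and group (colour), with a point per animal that had at least 20 cells of the class. Tnfsf11 is highest in Osteoblasts and Mmp3+ cells of arthritic animals, and Csf1 is highest in Il6+ cells in untreated arthritis.

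Tnfrsf11b, which encodes the RANKL decoy OPG, had no called difference between untreated and healthy fibroblasts. Its estimate depended on which classes were used and how they were weighted. Fibroblast levels were 12.7, 19.0 and 19.96 CPM in the healthy animals and 15.7, 9.21 and 14.1 CPM in untreated arthritis. The groups overlapped, with a difference of -0.20 ± 0.24 (edgeR adjusted p = 0.59, 95% interval -0.72 to 0.32). When Chondrocytes and Osteoblasts were added to the fibroblasts, the difference was -0.86 and passed (edgeR adjusted p = 0.019). Against only the healthy animal of the untreated library the sign turned, at 0.26 (adjusted p = 0.67), as it did with library as a term (0.25, adjusted p = 0.67) and without untreated animal 2 (0.018, adjusted p = 0.97). With equal weight on Lining, Il6+ and Cd200+ cells, Tnfrsf11b went from 28.2 ± 25.3 CPM in healthy (SD, n = 3) to 10.7 ± 2.91 CPM in untreated animals (n = 3), a log2 difference of -1.40, which was not tested. With only cells of the highest raw hashtag the fibroblast difference was -0.40 (edgeR adjusted p = 0.52), and without healthy cells with a Y-linked UMI it was -0.22 (adjusted p = 0.63).

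The classes differed widely in Tnfrsf11b. In healthy animals Tnfrsf11b was highest in Osteoblasts (79.8 ± 32.1 CPM, SD, n = 2), Cd200+ cells (78.7 ± 75.6, n = 3) and Chondrocytes (74.6 ± 60.5, n = 3), whose ranges overlapped. Pi16+ cells (16.9 ± 5.68) came next, followed by Lining (3.83 ± 1.93) and Il6+ cells (2.14 ± 1.72), which overlapped each other. Chondrocytes, Pi16+ cells, Cd200+ cells and Osteoblasts held 28.8% ± 15.3, 22.1% ± 3.33, 20.8% ± 21.2 and 19.0% ± 11.6 of healthy Tnfrsf11b UMIs. In untreated arthritis Mmp3+ cells held 62.7% ± 12.2. In Chondrocytes Tnfrsf11b went from 45.4, 34.2 and 144 CPM in healthy to 3.02, 32.9 and 5.81 CPM in untreated animals, just without overlap. It fell by 2.35 ± 0.60 (edgeR, adjusted p = 0.017), a call lost without healthy animal 3 (-1.44, adjusted p = 0.17), untreated animal 1 (-1.99, 0.051) or untreated animal 3 (-1.89, 0.081). Without healthy cells with a Y-linked UMI it was -2.35 (edgeR adjusted p = 0.027). In Mmp3+ cells, few in healthy animals, Tnfrsf11b was also lower in untreated arthritis, by 2.15 ± 0.55 (edgeR adjusted p = 0.040, 2 healthy animals). That fit had a minimum of 10 cells and left out healthy cells with a Y-linked UMI.

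Whether the disease difference in Tnfrsf11b varied between fibroblast classes depended on the animals and cells used. The interaction of class with disease over Lining, Il6+ and Cd200+ cells passed with all of them (edgeR adjusted p = 0.0227, with 5.76% of all genes called). It did not pass without healthy animal 2 (edgeR adjusted p = 0.34) or 3 (0.085), without untreated animal 1 (0.058) or 3 (0.11), or without healthy cells with a Y-linked UMI (0.11). With only cells of the highest raw hashtag, where Lining and Il6+ cells remained, its adjusted p was 0.71. Relative to Cd200+ cells the disease difference was higher by 2.42 in Il6+ cells and by 2.78 in Lining cells. Cd200+ cells held 18.7, 164 and 53.7 CPM in healthy and 13.1 to 28.1 CPM in untreated animals, a difference of -1.81 ± 0.61 (adjusted p = 0.12). Lining cells gave 1.20 ± 0.65 (adjusted p = 0.27) and Il6+ cells 0.86 (adjusted p = 0.49). The healthy Cd200+ values are wide, and the healthy animal of the TNF-inhibited library, whose cells were among the doubtful ones, set the highest.

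By group mean, IL-17-inhibited animals had the highest Tnfrsf11b and the lowest Tnfsf11 of the arthritic groups. Fibroblast levels were 23.8, 16.1 and 19.8 CPM with IL-17 inhibition, all above the untreated animals, and 8.93, 8.29 and 10.99 CPM with TNF inhibition, which overlapped them. Neither difference from untreated arthritis passed in edgeR (IL-17: 0.58 ± 0.22, adjusted p = 0.12; TNF: -0.40 ± 0.22, adjusted p = 0.31). IL-17-inhibited animals were above TNF-inhibited ones by 0.97 ± 0.22 (adjusted p = 0.018). That call was lost without IL-17-inhibited animal 1 (0.81, adjusted p = 0.065) or TNF-inhibited animal 2 (0.88, 0.089), with library as a term (0.90, 0.75), and with only cells of the highest raw hashtag (0.98, 0.0503). The endothelial barcodes moved the same way, with 8.81, 3.78 and 12.01 CPM of Tnfrsf11b in the libraries of untreated, TNF-inhibited and IL-17-inhibited animals. Endothelium is itself known to make OPG, and the part of free RNA in this difference was not tested. In Mmp3+ cells the difference between inhibitors was 1.26 ± 0.25 (edgeR adjusted p = 0.012, with 9.41% of genes called), from 40.7, 28.0 and 30.2 CPM with IL-17 inhibition to 10.99, 10.5 and 16.7 CPM with TNF inhibition. The call in Mmp3+ cells was lost without TNF-inhibited animal 2 (1.14, adjusted p = 0.058). FAP-sorted fibroblasts held 6.46, 4.89, 7.92, 6.44 and 8.05 CPM, all below the untreated animals. Tnfrsf11b was lower there by 0.84 ± 0.19 on the log2 scale (edgeR adjusted p = 0.0060).

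Cells with a Tnfrsf11b UMI were few. After thinning to 3000 UMIs the share was 3.46% ± 1.82 of Mmp3+ cells in untreated, 2.89% ± 1.17 in TNF-inhibited and 6.82% ± 1.10 in IL-17-inhibited animals, against an endothelial background of 2.21%, 1.17% and 1.34% (exact intervals 1.06% to 4.02%, 0.429% to 2.52% and 0.542% to 2.75%). Among 1829 thinned Mmp3+ cells of untreated animals, 642 had a Tnfsf11 UMI, 55 a Tnfrsf11b UMI and 24 both. So 43.6% of cells with Tnfrsf11b also had Tnfsf11, compared with 35.1% of all cells of the class. In the other arthritic groups the order was the opposite: 19.3% against 25.4% in TNF-inhibited, 13.2% against 19.5% in IL-17-inhibited and 20.8% against 28.7% in FAP-sorted animals. RANKL and its decoy were thus seen together in some cells, with no common direction. The differences between these shares were not tested. No removal of droplets with more than 1 cell was done beyond any by the authors, whose steps are not given.

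The ratio of Tnfsf11 to Tnfrsf11b UMIs in fibroblasts was 1.06, 0.349 and 0.403 in the healthy animals. Their Tnfsf11 is read as background, so these ratios, and all differences from them, rest on a background numerator. The ratio was 9.23, 14.2 and 11.7 in untreated, 14.4, 15.8 and 8.25 in TNF-inhibited, and 4.59, 3.74 and 3.48 in IL-17-inhibited animals. Every arthritic animal was above every healthy one, and every IL-17-inhibited animal was below all other arthritic animals. Geometric means were 0.531, 11.5, 12.3 and 3.91. In each arthritic group, FAP-sorted animals included, the highest ratios were in the animals with a high share of cells holding a Y-linked UMI. The part of sex in the ratio was not tested. Each transcript is counted once at its 3' end, so gene length does not enter the counts, but the share of transcripts captured may differ between the genes, and a ratio of 1 does not mean equal numbers of molecules.

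**Figure D4:**
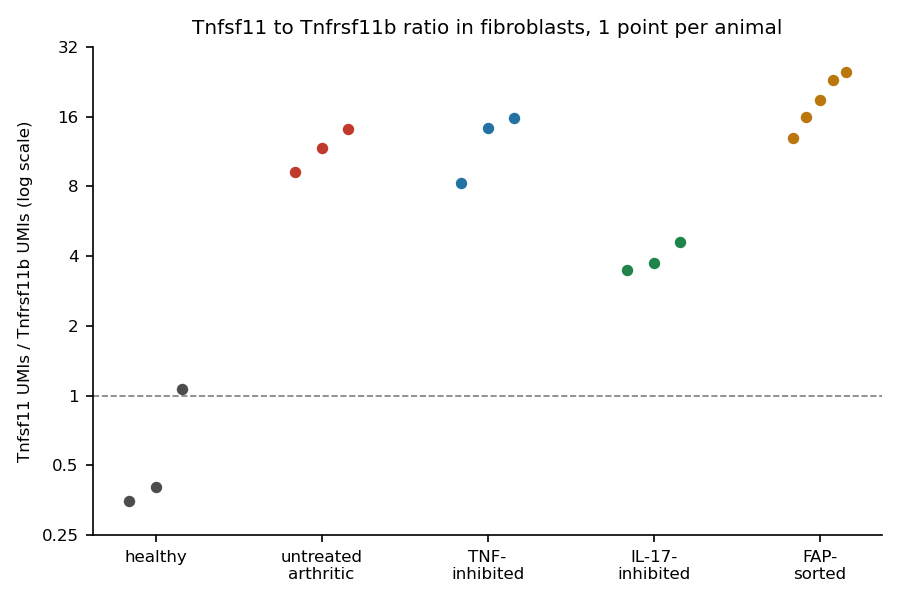
Ratio of Tnfsf11 to Tnfrsf11b UMIs in fibroblasts (y axis, log scale) for each of 17 animals (points) by group (x axis). The dashed line marks a ratio of 1. Healthy animals lie between 0.349 and 1.06, IL-17-inhibited animals between 3.48 and 4.59, and the other arthritic animals at 8.25 or more. Tnfsf11 of the healthy animals is read as background.

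Healthy animals were below the arthritic animals of their own library by a mean of 3.95 on the log2 scale (-3.44, -5.14 and -3.28 for healthy animals 1, 2 and 3). The two-sided exact permutation test within libraries gave p = 0.0156, the smallest that its 64 arrangements allow. The 3 arthritic groups differed in an exact permutation test of F (19.6, upper tail, p = 0.0286). Adjusted over the 3 ratio tests, both gave p = 0.0429 in these exact permutation tests, and over all 9 ratio comparisons made, 0.113. For single pairs of groups, 3 animals against 3 cannot go below p = 0.1, which IL-17-inhibited against untreated reached (log2 difference -1.56, exact permutation). TNF-inhibited against untreated was 0.09 with exact permutation p = 0.8. Without any 1 healthy animal the exact permutation test within libraries gave p = 0.0625, the smallest left by the design. With only the cells whose annotated hashtag was highest in raw counts, the difference was -4.96, and without healthy cells with a Y-linked UMI it was -4.18, both at an exact permutation p of 0.0156.

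FAP-sorted animals had ratios of 23.0, 24.9, 15.9, 19.0 and 13.0, of which 1 overlapped the untreated range. They were higher by 0.69 on the log2 scale (exact permutation p = 0.0536 over 56 splits, two-sided). With equal weight on Lining, Mmp3+, Il6+ and Cd200+ cells this became 0.83 (exact permutation p = 0.018).

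Class by class, the log2 ratios of TNF-inhibited and IL-17-inhibited animals did not overlap in Lining cells, Mmp3+ cells and Osteoblasts, and overlapped in Chondrocytes, Il6+ and Cd200+ cells. In Lining cells it was 0.75 ± 0.41 in healthy (SD, n = 3), 2.14 ± 0.54 in untreated, 3.34 ± 0.39 in TNF-inhibited and -0.07 ± 0.38 in IL-17-inhibited animals. The last is near a ratio of background counts: these cells held 12.4 CPM of Tnfsf11 and 11.8 CPM of Tnfrsf11b, and the endothelial barcodes of that library 7.67 and 12.01 CPM. Mmp3+ cells gave 3.71 ± 0.34, 3.53 ± 0.68 and 1.86 ± 0.09 in the same arthritic groups. Il6+ cells (3.47 ± 0.71, 4.26 ± 0.39, 2.97 ± 1.38) and Cd200+ cells (2.27 ± 0.61, 3.57 ± 0.61, 3.22 ± 1.47) gave overlapping values. Osteoblasts gave 2.17 ± 1.00 (n = 2), 3.99 ± 1.06 and 1.74 ± 0.84, and Chondrocytes 3.61 ± 1.57, 3.99 ± 1.83 and 1.19 ± 1.10, with only 7 Tnfrsf11b UMIs in TNF-inhibited Chondrocytes. Chondrocytes went from -2.62 ± 1.72 in healthy to 3.61 ± 1.57 in untreated animals (n = 3 each). Tnfsf11 in healthy Lining cells (7.08 CPM) and healthy Chondrocytes (10.5 CPM) was near the endothelial background (7.67 to 18.3 CPM). The class ratios were not tested.

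Csf1, which encodes M-CSF, was found in every class. Fibroblast levels were 264, 231 and 274 CPM in healthy and 211, 172 and 139 CPM in untreated animals, without overlap. The difference of -0.35 ± 0.15 did not pass in edgeR (adjusted p = 0.11). Without untreated animal 1 it did (-0.52, adjusted p = 0.026). With only cells of the highest raw hashtag it was -0.66 (edgeR adjusted p = 0.054), and without healthy cells with a Y-linked UMI it was -0.28 (adjusted p = 0.22). TNF-inhibited animals held 137, 108 and 149 CPM, and IL-17-inhibited animals 197, 235 and 191 CPM. Neither difference from untreated arthritis passed (-0.33 ± 0.15, adjusted p = 0.21, and 0.20 ± 0.15, adjusted p = 0.46). Against healthy animals Csf1 was lower with TNF inhibition by 0.68 ± 0.16 (edgeR adjusted p = 0.0035), a call lost with library as a term (-0.55, adjusted p = 0.12), and with IL-17 inhibition the difference did not pass (-0.15, adjusted p = 0.48). With the 2 smaller sets of cells these were -0.996 and -0.62, both passing, and -0.46 and -0.083, neither passing.

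The disease difference in Csf1 was not the same in all classes. In Lining cells, the layer facing the joint cavity, Csf1 was 324, 261 and 301 CPM in healthy and 97.4, 90.3 and 96.4 CPM in untreated animals. It fell by 1.41 ± 0.24 (edgeR, adjusted p = 0.00080), by 1.64 with only cells of the highest raw hashtag (adjusted p = 0.0023) and by 1.31 without healthy cells with a Y-linked UMI (adjusted p = 0.0071). In Il6+ cells it was 274, 256 and 326 CPM in healthy and 400, 349 and 277 CPM in untreated animals, which overlapped (0.34, adjusted p = 0.34). No fibroblast class was called higher. The disease difference in Csf1 depended on class in the interaction test over Lining, Il6+ and Cd200+ cells (edgeR adjusted p = 1.6e-05). It passed without each of the 6 animals (adjusted p up to 0.00037), without healthy cells with a Y-linked UMI (6.4e-05) and, over Lining and Il6+ cells, with only cells of the highest raw hashtag (2.4e-05). Relative to Cd200+ cells it was lower by 1.65 in Lining cells. In Chondrocytes Csf1 was also lower in untreated animals, by 0.92 ± 0.17 on the log2 scale (edgeR adjusted p = 0.0024). In Mmp3+ cells, few in healthy animals, it was lower by 1.12 ± 0.30 (edgeR adjusted p = 0.0498, 2 healthy animals). That fit had a minimum of 10 cells and left out healthy cells with a Y-linked UMI.

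IL-17 inhibition went with high Csf1 in Lining and Mmp3+ cells. Lining cells held 252, 231 and 204 CPM with IL-17 inhibition, above all untreated and below all healthy animals. Csf1 rose there by 1.24 ± 0.23 against untreated arthritis (edgeR adjusted p = 0.034). The call was lost without any 1 of 5 of the 6 animals (adjusted p up to 0.14), with estimates of 1.16 to 1.26, and held without IL-17-inhibited animal 3. Mmp3+ cells held 187, 167 and 136 CPM with IL-17 inhibition, against 78.8, 76.2 and 76.0 CPM in untreated and 74.4, 75.2 and 85.1 CPM in TNF-inhibited animals. They stood clear of both groups. Csf1 rose there by 0.97 ± 0.11 against untreated arthritis (edgeR adjusted p = 0.0015), a call kept without each of the 6 animals. It was higher than with TNF inhibition by 0.89 ± 0.11 (adjusted p = 0.0011), and in Lining cells by 1.36 ± 0.24 (adjusted p = 0.0030). In Il6+ cells, Csf1 did not pass with IL-17 inhibition (-0.27 ± 0.19, adjusted p = 0.52).

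Il6+ fibroblasts, named for the inflammatory cytokine Il6, were the largest holder of Csf1 in untreated arthritis. They had 61.5% ± 6.95 of Csf1 UMIs and 43.4% ± 4.33 of the cells, and Mmp3+ cells had 22.4% ± 5.66 of the UMIs. In healthy animals Pi16+ cells held 40.9% ± 1.34 of Csf1 UMIs with 36.6% ± 2.58 of the cells. That class was scarce in the unsorted arthritic groups (0.199% to 2.10% of cells) and less so in FAP-sorted animals (7.89% ± 2.24). Lining (295 ± 31.97 CPM), Il6+ (285 ± 36.3) and Pi16+ cells (264 ± 19.5) overlapped in healthy animals. In untreated animals Il6+ cells (342 ± 61.9) stood above all other classes, which lay between 76.98 ± 1.56 (Mmp3+) and 106 ± 6.24 CPM (Chondrocytes). Thinned shares of cells with a Csf1 UMI were 44.9% ± 6.91 of healthy, 23.4% ± 3.43 of untreated, 22.6% ± 9.44 of TNF-inhibited and 39.6% ± 3.54 of IL-17-inhibited Lining cells. Endothelial barcodes gave 20.1%, 19.8% and 25.5% (exact intervals 16.5% to 24.1%, 16.4% to 23.5% and 21.8% to 29.5%). Endothelium is itself known to make M-CSF, so that share was not read as background.

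FAP-sorted fibroblasts had Csf1 levels of 95.04, 110, 76.1, 68.5 and 94.4 CPM, all below the untreated animals. It was lower there by 0.89 ± 0.16 on the log2 scale (edgeR adjusted p = 0.0020). Il6+ cells were 17.8% ± 4.81 of the FAP-sorted cells. Within Il6+ cells Csf1 was lower by 0.68 ± 0.14 (edgeR adjusted p = 0.0037, with 25.6% of genes called), and within Mmp3+ cells by 0.26 ± 0.08 (adjusted p = 0.028).

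Il34, the other ligand of CSF1R, was counted at low levels. Fibroblast levels were 2.74, 3.28 and 5.99 CPM in the healthy animals, from 65 UMIs in all, and 6.79, 7.67 and 9.81 CPM in untreated arthritis. The groups did not overlap, but endothelial barcodes held 1.82, 7.14 and 6.51 CPM in the 3 libraries, so the healthy level of all fibroblasts together is read as background. Il34 rose by 1.30 ± 0.36 (edgeR adjusted p = 0.016), 2.47-fold. The call was lost without healthy animal 1 (1.05, adjusted p = 0.091), healthy animal 2 (1.22, 0.064) or untreated animal 3 (1.14, 0.057), and with only the cells whose annotated hashtag was highest in raw counts (1.37, 0.070). Without healthy cells with a Y-linked UMI it was 1.30 (adjusted p = 0.027). Within Mmp3+ cells the estimate had the other sign. At a minimum of 10 cells and without the Y-linked healthy cells it was -1.12 ± 0.75 (edgeR adjusted p = 0.52, 2 healthy animals). Healthy Mmp3+ cells held 19.1% ± 12.6 of Il34 UMIs with 3.09% ± 1.45 of the cells, and untreated ones 69.0% ± 3.16 with 35.2% ± 3.24. The part of the class mix in the fibroblast rise was not tested.

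IL-17-inhibited animals had the highest Il34, at 24.0, 21.8 and 13.2 CPM, above every other unsorted animal. It rose by 1.20 ± 0.27 against untreated arthritis (edgeR adjusted p = 0.018, 2.30-fold) and was above healthy by 2.51 ± 0.35 (adjusted p = 0.00015; 2.58 and 2.50 with the 2 smaller sets of cells) and above TNF-inhibited animals by 1.80 ± 0.28 (adjusted p = 0.0027). The call against untreated arthritis was lost without IL-17-inhibited animal 1 or 2 or untreated animal 1 or 2 (1.02 to 1.15, adjusted p up to 0.082). With library as a term it was 0.02 (adjusted p = 1.00), and that against TNF inhibition 0.93 (0.88). TNF-inhibited animals held 7.11, 4.52 and 3.23 CPM, overlapping the untreated ones (-0.60 ± 0.28, adjusted p = 0.22). FAP-sorted animals held 8.12 to 11.7 CPM, which overlapped them too (0.30 ± 0.15, adjusted p = 0.13). Endothelial barcodes held 1.82, 7.14 and 6.51 CPM of Il34 in the libraries of untreated, TNF-inhibited and IL-17-inhibited animals. The TNF-inhibited fibroblast levels were thus no higher than the background of their library. The part of free RNA in these Il34 differences was not tested.

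Mmp3+ cells held most Il34 in each unsorted arthritic group: 69.0% ± 3.16 of its UMIs in untreated, 72.2% ± 8.78 in TNF-inhibited and 68.0% ± 1.79 in IL-17-inhibited animals. Within them Il34 was 36.6, 35.5 and 20.4 CPM with IL-17 inhibition, against 10.3, 10.7 and 13.2 CPM in untreated and 8.50, 5.93 and 4.09 CPM in TNF-inhibited animals. The IL-17-inhibited animals stood clear of both. Il34 rose by 1.29 ± 0.23 against untreated arthritis (edgeR adjusted p = 0.0087), kept without each of the 6 animals, and by 2.05 ± 0.24 against TNF inhibition (adjusted p = 0.00098). In Cd200+ cells it was higher with IL-17 than with TNF inhibition by 2.29 (edgeR adjusted p = 0.029, with 1.74% of genes called), a call lost without any 1 of 4 animals, IL-17-inhibited 1 or 2 and TNF-inhibited 2 or 3 (adjusted p up to 0.16). The thinned share of Mmp3+ cells with an Il34 UMI was 7.15% ± 2.54 with IL-17 inhibition, 3.55% ± 1.78 in untreated and 1.98% ± 1.12 in TNF-inhibited animals, the last close to the endothelial 1.94% of that library (exact interval 0.935% to 3.54%).

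In Lining cells Il34 was 3.03, 2.76 and 0 CPM in healthy and 7.64, 8.84 and 14.0 CPM in untreated animals. It rose there by 2.35 ± 0.73 (edgeR adjusted p = 0.043), a call lost without any 1 of 5 of the 6 animals, all but untreated animal 1 (adjusted p up to 0.13). It was lost too with only cells of the highest raw hashtag (2.17, edgeR adjusted p = 0.20) and without healthy cells with a Y-linked UMI (1.82, adjusted p = 0.18). Across classes of untreated animals all neighbours in the order of Il34 overlapped, from Mmp3+ (11.4 ± 1.58 CPM) and Lining (10.2 ± 3.38) down to Il6+ cells (2.44 ± 0.30).

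By likeness of pattern, the genes nearest to each of the 4 were ranked by Pearson's r of log2(CPM + 1) over 53 sums of an animal and fibroblast class, among 9261 genes. The sums share libraries, animals and depth, so r is a description. Nearest to Tnfsf11 were Kcnj15 (r = 0.87), a potassium channel, Lox (0.83), the collagen crosslinking lysyl oxidase, Glrx (0.82), Rnf125 (0.82) and Znrf1 (0.82). Tnfrsf11b was nearest to Bmp2 (0.70), a bone morphogenetic protein, Gsdme (0.69), Phlda3 (0.69), Slc39a13 (0.68) and Micos10 (0.67). Csf1 was nearest to Clic4 (0.85), Glul (0.85), the glutamine synthetase, Gfpt2 (0.82), Thbd (0.81), which is thrombomodulin, and Pcolce2 (0.81). Il34 was nearest to Il2rg (0.81), the common gamma chain of cytokine receptors, Spg21 (0.73), Fads3 (0.71), Cryaa (0.70) and Dusp6 (0.69). Among the 4 themselves, Tnfsf11 and Csf1 had r = -0.64, Tnfrsf11b and Il34 0.42 and Tnfsf11 and Tnfrsf11b 0.21.

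Other genes of the same signalling were followed in 7 lists. From healthy to untreated arthritis in fibroblasts, the list of attractants of osteoclast precursors rose in 5 and fell in 0 of 8 genes (median log2 difference 1.33, against 0.01 over all genes), with 14.4% of all genes called higher and 14.3% lower. They were Cxcl12 (1.71 ± 0.15, edgeR adjusted p = 4.1e-06), Cxcl5 (2.69 ± 0.27), Cx3cl1 (1.71 ± 0.20), Ccl9 (2.34 ± 0.47) and Spp1 (0.94 ± 0.18), the last encoding osteopontin. Of 11 inducers of RANKL tested, 3 rose and 1 fell: Il6 (1.00 ± 0.16), Lif (1.67 ± 0.28), Ptgs2 (1.42 ± 0.31), the inducible enzyme of prostaglandin synthesis, and Wnt5a (-0.81 ± 0.12). Of 22 receptors and factors upstream of RANKL, 7 rose and 3 fell. They included the glucocorticoid receptor Nr3c1 (-0.83 ± 0.08), the IL-1 receptor Il1r1 (0.54 ± 0.10), the vitamin D receptor Vdr (1.92 ± 0.38) and the IL-6 family receptor chain Il6st (0.46 ± 0.09).

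Of 14 genes listed as stromal restraints on osteoclasts, 3 rose and 4 fell, with Clec3b (-1.83), Sfrp1 (1.32), Bgn (1.44) and Lgals3 (0.71) leading. Among 5 RANKL sheddases tested, proteases that can release RANKL from the membrane, 3 rose and 1 fell. They were Mmp3 (3.78 ± 0.21, and a class is named for it), Mmp14 (1.01 ± 0.15), Adam10 (0.48 ± 0.13) and Adam19 (-1.26 ± 0.24). Of 4 partners of RANKL and OPG tested, the proteoglycan Sdc1 rose (1.74 ± 0.18) and Lgr4, a further receptor for RANKL, fell by 0.45 ± 0.12. RANK itself (Tnfrsf11a) was too low to be tested. The CSF1R list, which also holds Sdc1, had 2 higher and 2 lower of 7, with Csf3 (2.78 ± 0.44), Ptprz1 (-1.95), a further receptor for IL-34, and Kitl (-0.75).

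For IL-17 inhibition against untreated arthritis the same lists were read, where 3.8% of all genes were called higher and 4.65% lower. Il6 (-0.70 ± 0.16), Ptgs2 (-1.25 ± 0.30), Mmp3 (-1.07 ± 0.19), Il1r1 (-0.63 ± 0.10) and the IL-6 receptor Il6ra (-0.65 ± 0.14) fell. Cx3cl1 (1.02 ± 0.16), Spp1 (0.63 ± 0.18), Csf2 (1.60 ± 0.43), which encodes GM-CSF, and Pthlh (1.05 ± 0.24), the parathyroid hormone-like inducer of RANKL, rose. By list this was 2 higher of 8 attractants, 1 higher and 2 lower of 11 inducers, 2 lower of 22 receptors and factors, 1 lower of 5 sheddases, 1 higher of 7 in the CSF1R list and 1 higher and 2 lower of 14 restraints (Tgfb1 0.44 ± 0.09, Sfrp1 -0.78 ± 0.16, Dcn -0.40 ± 0.10).

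TNF inhibition against untreated arthritis, where 2.53% of all genes were called higher and 3.02% lower, called 7 of the listed genes. Spp1 (1.56 ± 0.18), the chemokine Ccl3 (3.81 ± 0.84), Ptges (0.72 ± 0.19), a prostaglandin E synthase, and the TNF receptor Tnfrsf1b (0.53 ± 0.11) rose. The IL-11 receptor Il11ra1 (-0.68 ± 0.16), Il1r1 (-0.41 ± 0.10) and Clec3b (-0.91 ± 0.11) fell. No other listed gene passed in edgeR. Spp1 and Il1r1 had the same direction with IL-17 inhibition, and the inhibitor comparisons share the untreated animals.

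Summed markers listed for other cells differed between groups within the annotated fibroblasts, and their part in the results was not tested. Several sums were led by a single gene that fibroblast classes carried, so they do not count other cells. Over all animals, Mmp3+ cells held 143 CPM of Sox9 (Acan 13.2) and 26.2 CPM of Lyz2 (Csf1r 0.902). Pi16+ cells held 230 CPM of Krtdap (Krt5 5.11). Summed osteoblast markers (7 genes) were 418 to 617.6 CPM in healthy and 65.6 to 184 CPM in untreated animals, a direction opposite to that of Tnfsf11. Myeloid markers (6 genes) were 1.64 to 4.52 CPM in healthy, with Ptprc and Adgre1 at 0, and 13.1 to 23.5 CPM in untreated, 7.60 to 24.5 CPM in TNF-inhibited, 7.96 to 10.0 CPM in IL-17-inhibited and 26.1 to 56.03 CPM in FAP-sorted animals. Osteoclast markers (8 genes) were 31.3 to 36.1 CPM in healthy and 53.7 to 71.5 CPM in untreated animals. Over all animals Acp5 held 212 CPM in Lining and 54.3 CPM in Mmp3+ cells. Oscar, Dcstamp, Ocstamp, Calcr and Tnfrsf11a reached at most 0.888 CPM in any class (Calcr, Mmp3+ cells). Ocstamp and Calcr were at 0 in healthy animals and counted in untreated ones, and Oscar and Dcstamp were at 0 in untreated animals and counted in healthy ones. Chondrocyte markers (7 genes) were 231 to 316 CPM in healthy and 143 to 172 CPM in untreated animals. Keratinocyte markers (4 genes) were 128 to 344 CPM in healthy, 20.3 to 23.7 CPM in untreated and 55.8 to 76.4 CPM in IL-17-inhibited animals.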

How the data were processed

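The authors deposited raw UMI counts per gene and barcode, with no normalization, for 4 libraries of 10x Genomics 3' chemistry. The matrices name Cell Ranger 6.0.0 (unsorted) and 5.0.0 (FAP-sorted), per the file headers. Version 6.0.6 and mm10 stand in the submitters' processing notes. A deposited per-cell table gave library, hashtag, class and the authors' UMI counts per cell. For the filtering of cells, hashtag calls, doublets and classes, the steps are not given in the sources used here. No further doublet removal was done, and libraries were hyper-loaded per the labels' protocols.

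Counts were summed per animal (hashtag within library) over the 5 fibroblast classes, or per class where an animal had at least 20 cells. Genotype and treatment matched the hashtag label in all 24227 cells. Levels are CPM of the summed cells. The test was the quasi-likelihood test of edgeR 4.0.16 under R 4.3.3, on TMM-scaled sums after filterByExpr, with Benjamini-Hochberg adjustment over all genes tested and a threshold of 0.05. Its 12 animals came from the unsorted libraries, and group was the model. The FAP-sorted contrast was fitted over 8 animals. The fits for Chondrocytes and Osteoblasts, the use of 2 smaller sets of cells, and the interaction without single animals, were added after the data were seen. Deviations of same-numbered untreated and TNF-inhibited animals from their group means correlated at 0.13, 0.26 and 0.14, a pairing from the data and not from the labels, and the replicate block changed no call of the 4 genes there. Nothing says that animals of a group were from separate litters. Ratios were log2 of the UMIs plus 0.5 and were tested by exact permutation over all arrangements with numpy 2.4.6. These tests were two-sided for differences and used the upper tail for F. DESeq2 1.42.0, other filters, weights and left-out animals were alternatives. Scripts were tested on simulated data. For shares of cells with a UMI, each cell was thinned to 3000 UMIs, shallower cells being left out. Healthy Mmp3+ cells then fell under the minimum in every animal.

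The members and gene lists were chosen with earlier results of these data known. Named genes are the 4 members, up to 4 called genes per list with the lowest adjusted p in a contrast, and the 5 nearest genes by likeness. Ccl9 exceeds that rule and was named after its values were seen. SEs, edgeR intervals and p-values cover the spread between animals, and the exact intervals of the endothelial shares cover counting error only. Each SE was computed as the absolute log2 fold change over the square root of edgeR's F statistic. RefSeq promoter sequences were found for Tnfsf11 and Csf1, 2 of the 4 genes.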

Additional observations from a re-analysis of the deposited data

Results flagged for a closer look

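In Osteoblasts of the FAP-sorted animals, Tnfsf11 was 248 CPM in animal 2, from 47 cells, and 160, 174, 158 and 165 CPM in the others, so that 1 animal lay far from the rest. Chance gives such a gap in about 1 of 20 groups, and 29 groups were looked at.

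The difference between untreated and healthy animals varied between Lining, Il6+ and Cd200+ cells for Tnfrsf11b (edgeR interaction, adjusted p = 0.0227, lost without any 1 of 4 of the 6 animals) and for Csf1 (adjusted p = 1.6e-05). For Tnfsf11 (adjusted p = 0.54) and Il34 (0.26) the same test did not pass. The classes are the authors' clusters of these cells, which may use the genes compared.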

How the results depend on the processing

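Animals per group are few, and each inhibitor shares its library. Tnfsf11 and Il34 of all fibroblasts together are at background in healthy animals, and the healthy hashtag calls are doubtful, which limits every comparison with healthy animals. Il34 of all fibroblasts together is at background in TNF-inhibited animals too. Of the main results under the alternatives, 344 values kept direction and side of the threshold, 35 moved, 4 became and 26 stopped being called, and 5, none of them called, changed sign. Leaving out 1 animal, called genes ranged 3125 to 3674 (untreated against healthy), 4589 to 5939 (TNF-inhibited against healthy), 3928 to 4570 (IL-17-inhibited against healthy), 105 to 781 (TNF-inhibited against untreated, lowest without untreated 1, also low without untreated 2 or 3 or TNF-inhibited 2), 326 to 754 (IL-17-inhibited against untreated, low without each of the 6), 473 to 1092 (between inhibitors, low without IL-17-inhibited 1 or 2 or TNF-inhibited 2) and 4330 to 6350 (FAP-sorted). Single genes then ranged -1.25 to -0.76 (Tnfsf11) and 1.02 to 1.41 (Il34) with IL-17 inhibition, 1.05 to 1.68 (Il34) and -0.52 to -0.21 (Csf1) for untreated against healthy, and -4.29 to -3.36 for the healthy ratio, with signs on both sides for Tnfrsf11b in untreated against healthy (-0.40 to 0.018) and for Tnfsf11 with IL-17 inhibition in Il6+ (-1.03 to 0.29) and Cd200+ cells (-0.0093 to 0.40). The interaction F of Tnfrsf11b ranged 3.39 to 17.5. Only the cells, of any animal, with the annotated hashtag highest in raw counts gave 2701, 365, 687 and 2925 called genes (untreated against healthy, TNF and IL-17 inhibition against untreated, IL-17 inhibition against healthy). They also gave Il34 1.37 (adjusted p = 0.070), Tnfrsf11b -0.23 in Il6+ cells and an interaction F of 1.11 for Tnfrsf11b, which was 6.40 without Y-linked healthy cells. All 7 classes gave Tnfrsf11b -0.86 (0.019). DESeq2 called 1405 genes with TNF inhibition. With library as a term, edgeR called 2317 genes (untreated against healthy), 2788 and 1948 (TNF and IL-17 inhibition against healthy), and 0 in each of TNF against untreated, IL-17 against untreated and IL-17 against TNF inhibition (799, 1107 and 1028 at an unadjusted p under 0.05), with Il34 1.82 (0.056) in untreated against healthy, Tnfrsf11b 0.25 there, Tnfsf11 -0.23 (0.96), Tnfrsf11b -0.12 and Il34 0.020 (1.00) with IL-17 inhibition, and Tnfsf11 0.73 with TNF inhibition. Fits of only the 2 groups called 2001 (IL-17 against untreated) and 495 genes (between inhibitors). Only the healthy animal of the untreated library gave 2259 genes, Tnfrsf11b 0.26 and Il34 1.83 (0.055). A replicate block on hashtag number raised Tnfrsf11b with IL-17 inhibition to a call (0.57, adjusted p = 0.041) and changed no other call of the 4 genes. Same-numbered IL-17-inhibited animals and those of the other groups had correlations of -0.27 to 0.075, so they share only a number. Equal weight on Lining, Il6+ and Cd200+ cells, without Mmp3+ and Pi16+ cells, gave 1.84 (Tnfsf11), -1.40 (Tnfrsf11b) and 0.93 (Il34) for untreated against healthy. Equal weight on the same classes and Mmp3+ cells gave -0.75 (Tnfrsf11b) and -0.15 (Csf1) with TNF inhibition, and -0.56 (Tnfsf11), 0.27 (Tnfrsf11b) and 0.39 (Csf1) with IL-17 inhibition. It gave 0.83 for the FAP-sorted ratio (exact permutation p = 0.018). The causes were not tested. Adjusted p over all alternatives ran from 0.0022 to 0.96 (Tnfsf11) and 0.0014 to 1.00 (Il34) with IL-17 inhibition. For Tnfsf11 in untreated against healthy animals its highest was 0.00042.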
